A study of Homo sapiens with 4 samples.

Results

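Activin-dependent regions were stretches of open chromatin with a peak both after Activin A and after Activin A plus Wnt3a, and with none in control cells or after Wnt3a alone. They were chosen by the presence and absence of peaks in 4 ATAC-seq peak lists, after peaks that overlapped or abutted had been merged into regions. The rule found 19261 of the 87966 regions of the series, which is 21.9%. ATAC-seq marks open chromatin by the insertion of sequencing adapters with a transposase. The cells were H1, a human embryonic stem cell line. The 4 groups had 1 library each: Activin A at 25 ng/ml for 6 h, Activin A and Wnt3a at 25 ng/ml each for 6 h (called combined here), Wnt3a at 25 ng/ml for 6 h, and control. The 3 treated groups shared a B27 medium, whereas control cells stayed in N2B27 medium with basic fibroblast growth factor at 20 ng/ml, so ligand and medium cannot be told apart against control. The Wnt3a group had the medium of both groups that received Activin A.

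Activin A binds type II and type I receptor kinases that phosphorylate SMAD2 and SMAD3, which enter the nucleus with SMAD4 and bind DNA together with partners such as FOXH1. In human pluripotent cells this signalling maintains the undifferentiated state and, at higher activity, drives the formation of mesendoderm, the precursor of endoderm and mesoderm. Wnt3a acts through beta-catenin and TCF/LEF factors, and cooperates with the Activin pathway at primitive streak genes. Which genes lie near the regions described here was not analysed, since positions are on hg19 and no annotation of that build was used.

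With 1 library per group there was no test between groups, and exact (Clopper-Pearson) 95% intervals in parentheses cover counting error only. Neighbouring regions are not independent, so these intervals are narrow for shares over the genome. The rule drew on the longest pair of lists for presence (75585 Activin A and 58382 combined peaks) and on the shortest pair for absence (21078 Wnt3a and 26223 control peaks). Sequencing depth is unknown. Over all regions, 58.2% had an Activin A peak and no control peak, 62.0% an Activin A peak and no Wnt3a peak, 39.8% a combined peak and no control peak, and 43.3% a combined peak and no Wnt3a peak. Every Activin-dependent region meets all of these by its definition, so nothing is read from them. The name describes the pattern of peaks and does not show that accessibility depends on Activin.

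Activin-dependent regions made up 26.3% (26.0 to 26.7) of the regions with an Activin A peak and 34.4% (34.0 to 34.8) of those with a combined peak. Among the 44302 regions that held both peaks they were 43.5% (43.0 to 43.9). Regions in all 4 lists accounted for 29.4% (29.0 to 29.8) of the 44302, regions that also had a control peak but no Wnt3a peak for 16.7% (16.4 to 17.1), and regions that also had a Wnt3a peak but no control peak for 10.4% (10.1 to 10.7). The order of these classes depended on list length: with each list cut to its 21078 best peaks, the length of the shortest, Activin-dependent regions were the smallest of the 4, at 10.2% (9.77 to 10.7), and regions in all 4 lists the largest, at 62.9% (62.1 to 63.6). The structure of the Activin-dependent regions was simple: 18625 of them (96.7%, 96.4 to 96.9) consisted of 1 peak from each list, and the other 636 held several peaks of at least 1 list.

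Most Activin-dependent regions had middling or low scores. The score is the authors' own value for each peak and is read here only as a rank within its list, so that the percentile of a peak is the share of the list's peaks that score no higher. In the Activin A list their scores had a median of 109 (quartiles 77.9 and 159, highest 657), which is percentile 50.2 of that list. In the combined list the median was 78.9 (quartiles 62.3 and 109, highest 607), percentile 40.1. Ranked only among the 44302 regions with both peaks, which removes the difference in list length, the median rank of Activin-dependent regions was 28.3 of 100 by combined score and 27.5 by Activin A score. The same ranks were 52.1 and 51.9 for regions found after all treatments but not in control, and 83.5 and 83.6 for regions in all 4 lists.

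**Figure D1:**
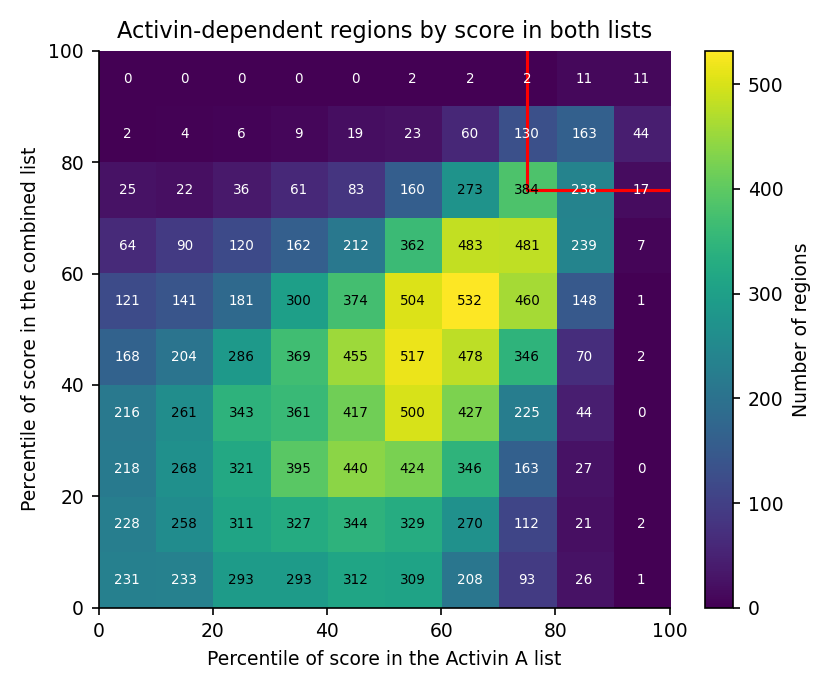
Number of Activin-dependent regions in bins of 10 percentiles of their Activin A score (horizontal) and combined score (vertical), each percentile taken within its own list. The red corner encloses the 514 regions in the top 25% of both lists, and the fullest bins lie in the middle of both scales.

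The scores of Activin-dependent regions in the 2 lists were only loosely related. Spearman's rho across these 19261 regions was 0.39, against 0.54 for the 4613 regions of all treatments without control and 0.81 for the 13016 regions in all 4 lists. These coefficients describe regions within a single pair of libraries, and the range of scores was narrower among Activin-dependent regions. The SD of the difference in rank between the lists was 21.6 points of 100 for Activin-dependent regions, 21.9 for regions of all treatments without control and 14.2 for regions in all 4 lists. By these ranks 51.3% of Activin-dependent regions stood higher in the combined list; as the ranks are taken over the same regions in both lists, a near-even split is largely built in.

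The share of regions that qualified fell steeply with score. Of regions with both peaks in the lowest 10% of Activin A scores, 85.2% (83.3 to 87.0) were Activin-dependent, whereas in the highest 10% the share was 1.13% (0.905 to 1.40). By combined score the corresponding shares were 81.3% (79.7 to 82.8) and 0.482% (0.320 to 0.696). The strongest open sites of the cells treated with Activin A were thus almost all found in control or after Wnt3a as well.

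The opposite relation held for recurrence between the Activin A and combined lists. Over all regions, 44302 of the 73116 with an Activin A peak also had a combined peak. Of the 45761 regions with an Activin A peak and neither a control nor a Wnt3a peak, 42.1% (41.6 to 42.5) also had a combined peak and so were Activin-dependent. That share was 18.8% (17.9 to 19.8) in the lowest 10% of Activin A scores, 59.3% (57.9 to 60.6) between the 50th and 60th percentiles, and 95.8% (94.4 to 97.0) between the 80th and 90th. In the highest 10% it reached 85 of 86 regions (98.8%, 93.7 to 99.97). From the other side, 44302 of the 56055 regions with a combined peak also had an Activin A peak. With neither a control nor a Wnt3a peak the share was 63.9% (63.3 to 64.4) of 30151 regions. It was 41.2% (39.8 to 42.6) in the lowest 10% of combined scores and 28 of 28 in the highest 10%. Recurrence without a control or Wnt3a peak, at 42.1% and 63.9%, was thus below that over all regions. These shares were not matched on score, with which recurrence rose. Shares over all regions by score were not computed. Neither the lower recurrence nor its rise with score is therefore read as particular to regions without a control or Wnt3a peak.

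**Figure D2:**
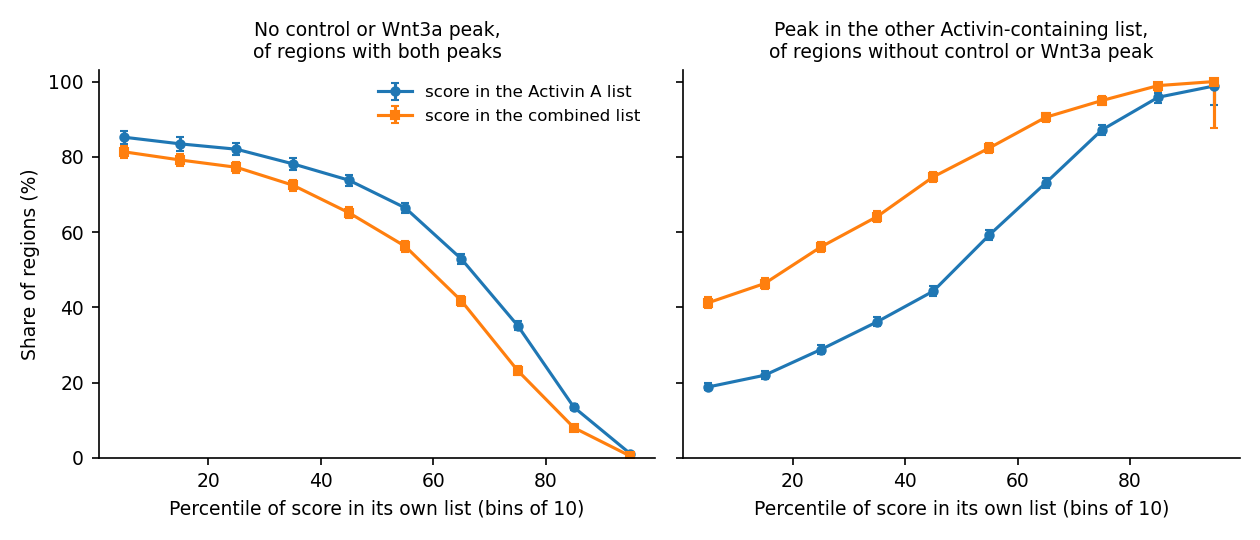
Left, share of regions with both peaks that lack a control and a Wnt3a peak; right, share of regions lacking a control and a Wnt3a peak that have a peak in the other list with Activin A, each by percentile of score in bins of 10 with exact 95% intervals. The share on the left falls from 85.2% to 1.13% with the Activin A score, while that on the right rises from 18.8% to 98.8%.

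The absence of a control peak and the absence of a Wnt3a peak went together. Among regions with both peaks, 80.7% (80.2 to 81.2) of those without a control peak also lacked a Wnt3a peak, against 36.3% (35.6 to 36.9) of those with a control peak. The 19261 regions lacking both exceeded the 14374 given by multiplying the overall shares of regions lacking a control peak (53.9%) and lacking a Wnt3a peak (60.2%). When the same product was taken within 97 cells of like Activin A and combined score, the observed number was 1.03 times its sum of 18733. At like score the pair of absences was therefore close to the product of the 2.

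The size of the Activin-dependent class followed list length, but the pair of lists that defines it remained the largest at each length tried. Among the 22269 regions found in exactly 2 full lists, 86.5% (86.0 to 86.9) were Activin-dependent. When each list was cut to its 21078 best peaks, 1666 regions had only an Activin A and a combined peak, which was 29.1% (27.9 to 30.3) of the 5729 regions in exactly 2 lists. The other 5 pairs then held between 647 regions (Wnt3a and control) and 896 (Activin A and control), or 11.3% to 15.6%. With the 5000 best peaks of each list, the Activin A and combined pair held 375 regions (23.1%, 21.1 to 25.3) and the other 5 pairs between 238 and 258. Of the 1666 regions at equal length, 1303 (78.2%, 76.2 to 80.2) touched an Activin-dependent region of the full lists, which are 6.76% (6.41 to 7.13) of the whole class.

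**Figure D3:**
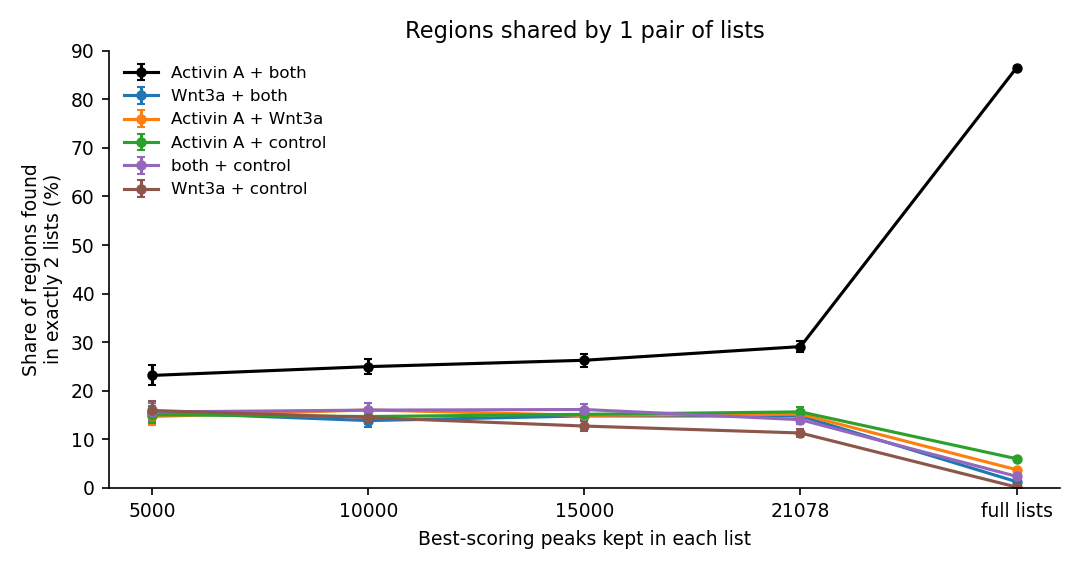
Share of regions found in exactly 2 lists that belong to each pair of lists (exact 95% intervals), when each list is cut to its 5000, 10000, 15000 or 21078 best-scoring peaks and for the full lists. The Activin A and combined pair lies above the other 5 pairs at every length, at 23.1% with 5000 peaks and 86.5% with the full lists.

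In the full lists, few Activin-dependent regions had high scores in both lists. Both peaks lay in the top 25% of their own list in 514 regions, 2.67% (2.45 to 2.91) of the class, while 12584 of all 87966 regions (14.3%) met that threshold. They were 4.08% (3.75 to 4.45) of these 12584 strong regions. The 514 lay on 23 chromosomes and in 320 cytogenetic bands. Their peaks had a median width of 1192 bp in the combined list and 1140 bp after Activin A, against 658 bp in each list for the other 18747 Activin-dependent regions. Width went with score, as strong regions found in all 4 lists had medians of 1355 bp combined and 1319 bp after Activin A. The nearest control or Wnt3a peak of the strong Activin-dependent regions was a median of 15753 bp away, close to the 17264 bp of the other Activin-dependent regions, and 46 of the 514 had one within 1000 bp. Requiring that peaks overlap by 50% of both peaks to count as shared raised the number of strong regions to 1887, and keeping only the highest 50% of scores in each list raised it to 2180. Both settings also make absence easier to meet. Control and Wnt3a peaks with less overlap, or with scores in the lower 50%, then no longer count, so regions excluded by the full lists can qualify. At equal list length 697 of the 1666 regions were strong (41.8%, 39.5 to 44.2), with the top 25% still taken from the full lists; cut lists hold mostly high-scoring peaks by construction.

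The 10 Activin-dependent regions with the highest lower percentile of the 2 lists stood in the top 10% of both lists. The first was at chr19:50315870-50317339 in band 19q13.33, with scores of 657 after Activin A and 517 in the combined list, percentiles 95.4 and 95.9. Control and Wnt3a peaks lay 3288 and 3343 bp from it. The second, at chr20:21081331-21084208 in 20p11.23, was 2878 bp wide and scored 537 after Activin A and 486 in the combined list. Its nearest control peak was 1252 bp away and its nearest Wnt3a peak 21819 bp away, so that only control had a peak close by.

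The third was at chr3:140789568-140790573 (3q23), with scores of 531 after Activin A and 450.5 in the combined list. The fourth, at chr16:2961293-2962451 (16p13.3), scored 518 and 363 in the same lists, and the fifth, at chr13:32420167-32421445 (13q13.1), scored 501 and 357. The 13q13.1 region was isolated, with no control or Wnt3a peak for 178 kb. The sixth, at chr16:47176765-47179011 (16q12.1), scored 462 after Activin A and 369 in the combined list, but a control peak lay 644 bp from it. The seventh, at chr9:72658001-72660264 (9q21.12), scored 481 and 349.6 in these lists and had a Wnt3a peak 804 bp away. Each of the 2 lay near a peak of 1 excluded list only, as the nearest Wnt3a peak was 169 kb from the 16q12.1 region and the nearest control peak 213 kb from the 9q21.12 region.

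The eighth was at chr9:86321673-86323783 (9q21.32), which scored 445 after Activin A and 383 with both ligands and whose nearest control or Wnt3a peak was 75.3 kb away. The ninth, at chr20:49547549-49549017 (20q13.13), scored 441 and 414 and lay 899 bp from a region open in all 4 lists. The tenth, at chr3:9849924-9852681 (3p25.3), scored 623 after Activin A, percentile 94.9, and 340.4 in the combined list, percentile 90.1. In these 10 regions the bases shared by the Activin A and combined peaks, over the bases covered by either, made up a fraction of 0.704 to 0.937.

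Some Activin-dependent regions ranked very differently after Activin A with and without Wnt3a. Of those in the top 50% of at least 1 list, the percentile in the combined list exceeded that in the Activin A list most at chr7:116420590-116421557 (7q31.2), at percentile 82.4 in the combined list (score 234) and percentile 1.67 in the Activin A list (53.9). It was followed by chr8:144640192-144641317 (8q24.3), at percentile 77.6 against 0.864, and chr11:46939717-46941073 (11p11.2), at percentile 81.4 against percentile 5.79. In each of these 3 the combined peak was between 968 and 1357 bp wide, whereas the Activin A peak was 556 to 597 bp wide and near the lower limit of its list. The other 2 were chr7:76052656-76054080 (7q11.23) and chr13:101173067-101174205 (13q32.3), at percentiles 78.2 and 77.4 in the combined list, against percentiles 3.47 and 3.34 after Activin A.

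The 5 largest shifts in the other direction follow. Percentiles come from lists of unequal length. Among the 44302 regions with both peaks, the combined rank of the first 5 regions was higher by 69.6 to 76.4 points of 100, and that of the second 5 differed by -83.8 to -70.6 points. At chr5:132082488-132084182 (5q31.1) the combined peak scored 50.6, percentile 2.27, against 468, percentile 91.1, after Activin A alone. At chr12:9066629-9068092 (12p13.31) the combined peak stood at percentile 0.200 and the Activin A peak at percentile 88.6, and at chr13:79177381-79178314 (13q31.1) they stood at percentiles 3.72 and 88.8. The last 2 of the 5 were chr6:158652596-158654335 (6q25.3), at percentile 1.22 combined against percentile 83.7 after Activin A, and chr5:178771958-178773209 (5q35.3), at percentile 0.415 against percentile 82.7. In all 10 of these shifted regions the lower peak scored between 50.05 and 56.02, where the lists begin at about 50, so they lie close to the edge of the class. With 1 library per group the shifts have no replicate check.

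Within Activin-dependent regions the Activin A and the combined peak covered largely the same bases. The Jaccard index, the bases shared by the 2 peaks over the bases covered by either, had a median of 0.703 (quartiles 0.586 and 0.807), and the centres of the peaks were a median of 84 bp apart (quartiles 38.5 and 153). The median peak width was 664 bp in the combined list and 665 bp after Activin A, and the combined peak was the wider one in 51.6% of regions. The rule asks only that the peaks fall into a common region, so the extent of overlap is a separate measure.

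Overlap grew with score in Activin-dependent regions and more steeply in the other classes with both peaks, most of all in regions in all 4 lists. For Activin-dependent regions the median index was 0.679 when the lower of the 2 percentiles was under 25, 0.706 between 25 and 50, 0.730 between 50 and 75, and 0.783 at 75 or above. For regions in all 4 lists the medians in the same tiers were 0.598, 0.680, 0.725 and 0.799. For regions of all treatments without control they were 0.649, 0.696, 0.734 and 0.773. Regions with control, Activin A and combined peaks had 0.651, 0.692, 0.733 and 0.772. The quartile ranges of the classes overlapped in each tier. The median of Activin-dependent regions was above that of regions in all 4 lists in the lowest tier and below it in the highest. Peak centres did not come steadily closer: their median distance in Activin-dependent regions was 88, 78.5, 86.5 and 95.5 bp over the tiers. Regions in all 4 lists had 108, 92, 98.75 and 102 bp. The median Activin A peak width of Activin-dependent regions rose from 594 bp in the lowest tier to 1139.5 bp in the highest, and the index was not adjusted for width.

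The rule fixes only that Activin-dependent regions do not touch a control or Wnt3a peak. Their distance to the nearest such peak was measured, without the same distance for other classes. The nearest peak of either list was a median of 17209 bp away (quartiles 5069 and 49037), and in 61.9% (61.2 to 62.6) of regions it was a control peak, the longer of these 2 lists. A minority bordered such a peak: 1400 regions (7.27%, 6.91 to 7.64) had one within 1000 bp and 97 (0.504%, 0.409 to 0.614) within 100 bp. Just outside the rule, 18 regions with both peaks shared at most 100 bp with a control or Wnt3a peak.

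The closest members of the class were separated from an excluded peak by 2 to 7 bp. They were at chr17:72113801-72114431 (17q25.1, 2 bp from a Wnt3a peak), chr11:64015807-64016718 (11q13.1, 4 bp, Wnt3a), chr19:3055134-3056376 (19p13.3, 5 bp, control), chr14:69726002-69727604 (14q24.1, 6 bp, Wnt3a) and chr11:32455585-32456704 (11p13, 7 bp, control). Whether such regions are open sites of their own or the flank of a shared site cannot be told from the lists. At the other end, chrY:6778071-6779893 (Yp11.2) lay 3.24 Mb from any control or Wnt3a peak. The next were chr6:66999413-67000270 (2.65 Mb), chr6:67776347-67776831 (2.17 Mb) and chr6:66347871-66348389 (2.001 Mb), all in 6q12, and chrX:144898994-144899845 (Xq27.3, 2.09 Mb). None of these 5 isolated regions was strong: their Activin A percentiles ran from 11.6 to 54.4.

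The distance to regions open in all 4 lists was set beside that of other classes. Of the Activin-dependent regions, 18.4% (17.8 to 18.9) lay within 10 kb of such a region and 49.7% (49.0 to 50.4) within 50 kb, with a median distance of 50597 bp. Within 10 kb the share was 17.1% (16.7 to 17.6) for regions of the Activin A list alone, 16.3% (15.6 to 17.0) for regions of the combined list alone, 20.4% (19.2 to 21.5) for regions of all treatments without control, and 22.1% (21.1 to 23.0) for regions with control, Activin A and combined peaks. The Activin-dependent share was 11.0% when shared peaks had to overlap by 50% of both and 11.6% with the highest 50% of scores, and the other classes were not recomputed under those settings.

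Activin-dependent regions formed small clusters. The nearest other member of the class was a median of 27510 bp away, and 13882 regions (72.1%) had none within 10 kb. Chains of at least 3 members with gaps of at most 10 kb numbered 487 and held 1657 regions (8.60%, 8.21 to 9.01). The share was 4.11% with the highest 50% of scores, 3.37% with gaps of at most 5 kb and 23.5% with gaps of at most 25 kb, and at equal list length no chain of 3 was left. At gaps of at most 10 kb the share was 12.6% (12.2 to 13.0) for the 26500 regions of the Activin A list alone and 6.78% (6.35 to 7.22) for the 13016 in all 4 lists. It was 2.47% (2.19 to 2.78) for the 10890 of the combined list alone, 3.22% (2.83 to 3.65) for the 7412 with control, Activin A and combined peaks, and 1.15% (0.862 to 1.5) for the 4613 of all treatments without control. The classes were not matched on number.

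The largest cluster held 11 Activin-dependent regions within 58285 bp at chr16:744126-802410, in the subtelomeric band 16p13.3. Activin A scores in it ran from 58.1 to 353 with a median of 195, and combined scores from 51.1 to 234 with a median of 59.6. One of the 11, at chr16:776132-777719, was strong in both lists, at percentile 86.2 after Activin A and percentile 82.4 in the combined list. The cluster was interleaved with 9 regions of other classes, of which 3 were open in all 4 lists and 4 were found after Activin A alone.

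The second cluster, at chr7:27127481-27148816 in 7p15.2, was of another kind. Its 7 Activin-dependent regions spanned 21336 bp with no region of any other class between them, and the nearest control or Wnt3a peak was 4293 bp from a member. Band 7p15.2 holds the HOXA cluster of homeobox genes, which pattern the body axis and are largely silent in pluripotent cells; whether the regions lie in that cluster was not analysed. The 7 regions had Activin A scores of 107, 55.6, 128, 96.8, 122, 104 and 133 in order along the chromosome, and combined scores of 67.8, 113, 59.1, 57.7, 59.9, 81.1 and 84.5. All were of middling or low rank, between percentiles 5.19 and 58.7 after Activin A, and none was in the top 25% of either list. It was the longest of the uninterrupted runs counted, the next being 6 runs of 5 regions. The runs of 5 or more regions spanned 8986 to 21336 bp, and nothing is read from their close spacing, which may follow from how runs were counted. Activin-dependent regions are 21.9% of all regions, which is not a base rate for such runs. Whether a run of 7 is unusual was not tested.

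**Figure D4:**
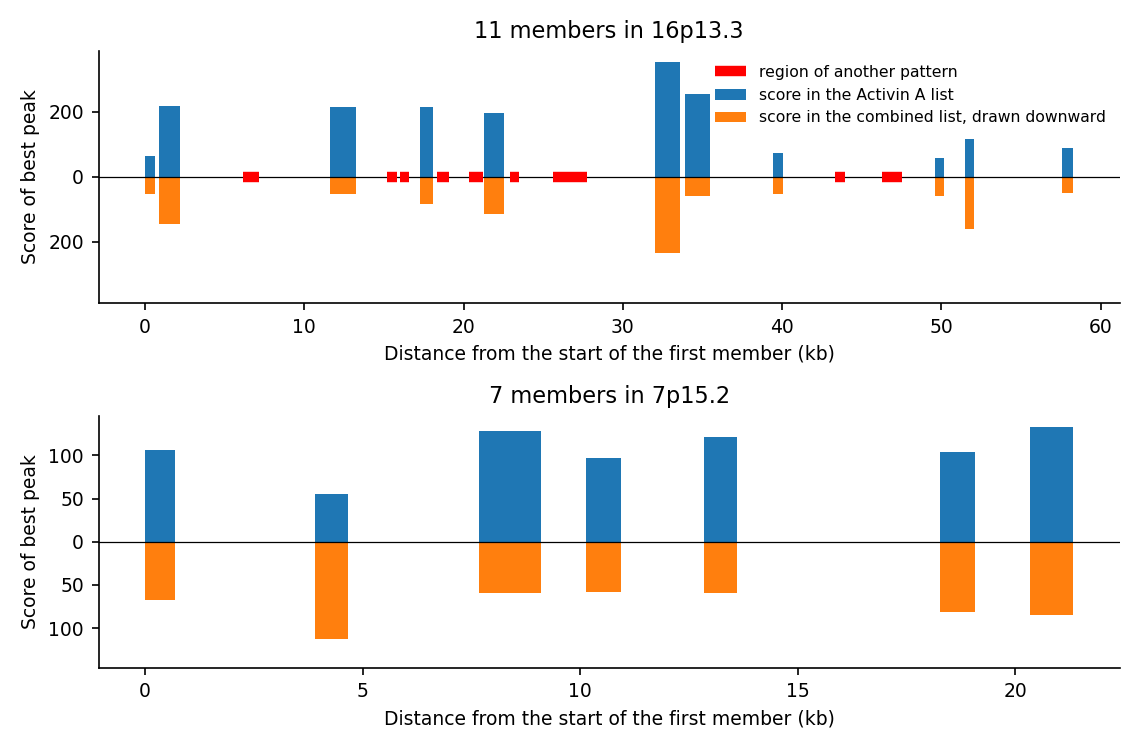
Activin-dependent regions of the 2 largest clusters by distance from the start of the first region (kb), with the score of the Activin A peak drawn upward and that of the combined peak drawn downward; bar width is the width of the region, and scores of the 2 lists are not on a common scale. Red marks on the axis are the 9 regions of other classes within the 16p13.3 cluster, and the 7p15.2 cluster has none.

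The other 3 clusters held 7 Activin-dependent regions each. The one at chr15:89901703-89923459 (15q26.1) enclosed 4 other regions, 1 of them open in all 4 lists, and its members had a median score of 113 after Activin A and 90.04 in the combined list. The one at chr17:77750792-77783169 (17q25.3) enclosed 6 other regions, 2 of them open in all 4 lists, with Activin A scores from 50.7 to 339. The one at chr1:6298385-6341309 (1p36.31) enclosed 4 other regions, with Activin A scores from 60.02 to 221. No member of these 3 clusters was in the top 25% of both lists.

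By cytogenetic band, Activin-dependent regions favoured light bands. Giemsa-negative bands, which are rich in genes and in G and C bases, held 57.8% (57.1 to 58.5) of Activin-dependent regions and make up 42.2% of the genome. The darkest class, which is poor in genes, held 7.73% (7.35 to 8.11) of them and makes up 16.1% of the genome. The Giemsa-negative share was 61.8% (60.7 to 62.9) for regions with control, Activin A and combined peaks, 59.1% (58.3 to 60.0) for regions in all 4 lists, 58.1% (57.5 to 58.7) for the Activin A list alone, 57.9% (56.4 to 59.3) for all treatments without control and 53.8% (52.9 to 54.8) for the combined list alone.

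Among strong regions the light-band share differed by class. It was 65.0% (60.7 to 69.1) for the 514 strong Activin-dependent regions and 66.0% (63.6 to 68.3) for the 1629 strong regions with control, Activin A and combined peaks. For the strong regions that had a Wnt3a peak it was lower, at 58.3% (54.9 to 61.7) for the 842 of all treatments without control and 59.3% (58.3 to 60.3) for the 9599 in all 4 lists. Among strong regions the higher shares belonged to both classes that lacked a Wnt3a peak, though the intervals of Activin-dependent regions and of all treatments without control overlap. In the lower tiers the classes did not divide in this way. In the tiers from 25 to 50 and from 50 to 75, Activin-dependent regions had 57.2% and 58.5%. The shares were 58.7% and 57.2% for all treatments without control, 58.7% in both tiers for all 4 lists, and 61.4% and 60.7% for control, Activin A and combined. In the lowest tier of score the share of Activin-dependent regions was 57.5% (56.4 to 58.6) and that of regions in all 4 lists 58.6% (51.8 to 65.1). There it was 57.9% for all treatments without control and 59.2% for control, Activin A and combined.

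Chromosomes differed in the share of regions with both peaks that were Activin-dependent. The X chromosome had the highest share, 407 of 744 regions (54.7%, 51.0 to 58.3), and chromosome 19 the lowest of all but the Y, 794 of 2239 (35.5%, 33.5 to 37.5). The low share on chromosome 19 went with the scores of its regions: summing the genome-wide share at each region's pair of scores gives 766, and the observed number was 1.04 times that. For the X the same sum gives 362, and the observed number was 1.12 times that. Over the autosomes this ratio ran from 0.967 (chromosome 13) to 1.05 (chromosome 22). On the X, 68.5% of regions with both peaks had no control peak and 66.3% no Wnt3a peak, against 53.9% and 60.2% genome-wide. The Y chromosome had 11 of 33 regions (33.3%, 18.0 to 51.8).

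**Figure D5:**
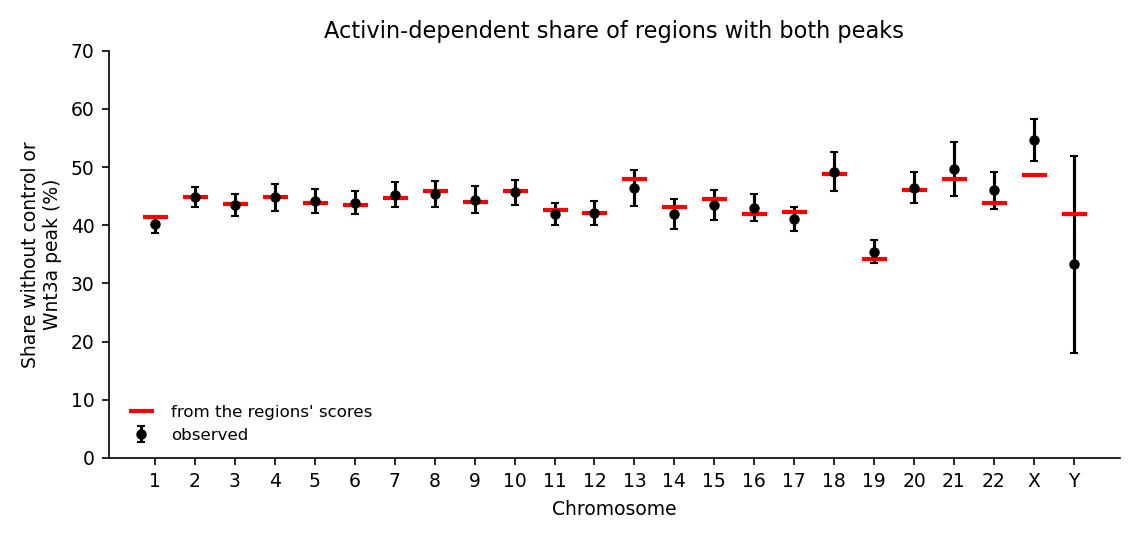
Share of regions with an Activin A and a combined peak that lack a control and a Wnt3a peak, by chromosome (black, with exact 95% intervals), and the share given by the scores of the chromosome's regions (red). The X chromosome stands at 54.7%, above its red mark, and chromosome 19 at 35.5%, close to its red mark.

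Among the 114 bands with at least 100 regions with both peaks, the Activin-dependent share ran from 26.7% to 58.4%. The highest shares were in 10q26.3 (59 of 101), 22q13.31 (61 of 105), 7p14.3 (60 of 104), 6q27 (61 of 107) and 16q12.1 (55 of 101). The lowest were in 16p11.2 (39 of 146), 17p13.1 (47 of 157), 5q31.3 (37 of 123), 15q15.1 (38 of 122) and 19q13.12 (35 of 112). Much of this range went with the scores: the ratio of the observed number to that given by the scores was 1.03 in 16p11.2, 0.997 in 19q13.12 and 1.08 in 10q26.3. Of the 114 bands, the ratio was highest in 7p14.3 (1.21, 60 observed and 49.5 from the scores) and lowest in 5q31.3 (0.788, 37 and 46.9). The share of 5q31.3 was 30.1% (22.1 to 39.0), an interval that includes the share given by its scores. That of 7p14.3 was 57.7% (47.6 to 67.3), and the share given by its scores lies just below the lower end. In 16p13.3 the ratio was 1.20, with 142 observed of 324 and 119 from the scores. Its share was 43.8% (38.3 to 49.4), and the share given by its scores lies below that interval. The bands were picked from 114 and were not tested. The quartiles of the ratio over the bands were 0.945 and 1.05.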

How the data were processed

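Each library was represented by a deposited peak list with chromosome, start, end, peak name and a score. CASAVA 1.8, Bowtie2 2.2.2 and the build hg19 are named in the submitters' processing notes. Peak names have the style of MACS, but the caller's settings, read shifting, duplicate removal and depth are not given in the sources used here. Each peak's score is the authors' own value as deposited, at or above 50 in every list; it may grow with depth, so it was used only within a list. Depth and read filtering would decide which weak peaks pass, and thus which regions count as absent.

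Overlapping or book-ended peaks of the 4 lists were merged, and the best peak of each list gave a region its score. Strong means the top 25% of both lists. Numbers given by scores are sums of the genome-wide Activin-dependent share in cells of 10 by 10 score percentiles. Bands came from circlize 0.4.16 (chromosome lengths checked with GenomeInfoDb 1.38.1). Python 3.11.15, numpy 2.4.6, pandas 2.3.3, scipy 1.17.1, matplotlib 3.10.9 and R 4.3.3 were used. The merging of peaks and the rule of the class were tested on simulated lists with planted members, and the distance measure on known distances. No gene, promoter, motif or sequence was analysed.

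The regions, measures and rules were chosen with earlier results of these data known. Named regions were the 10 with the highest lower percentile; the 5 with the largest shift each way between lists, among those in the top 50% of at least 1; the 5 largest clusters; the 5 bands with the highest and the 5 with the lowest share; and the 5 closest to and the 5 farthest from a control or Wnt3a peak. Positions count from 1 on hg19.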

Additional observations from a re-analysis of the deposited data

How the results depend on the processing

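Of 84 alternative values, 41 stayed, counts within 1.5 times and shares within their interval (the overlap index within its quartiles), and 43 moved. On autosomes alone, and without centromeric, heterochromatic and stalk bands, none of the 7 results recomputed moved, and the overlap index moved under no alternative. With the highest 50% of scores of each list, the number of Activin-dependent regions was 10556, that of strong ones 2180, the share near regions in all 4 lists 11.6%, in Giemsa-negative bands 59.9% and in clusters 4.11%. At equal list length the number was 1666 and their share of regions with both peaks 10.2%. The share near regions in all 4 lists was then 17.0% and that in Giemsa-negative bands 62.0%. In clusters the share was 0% (0 of 1666), where the 3 regions of a smallest cluster would make 0.180%. Both settings keep fewer peaks by construction. Control peaks are among those cut, so a region that had one in the full lists can come to qualify.

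With an overlap of 50% of both peaks needed, control and Wnt3a peaks that overlap less count as absent. This setting gave 1887 strong regions, a share of 48.5%, 11.0% near regions in all 4 lists and 9.35% in clusters. Merging within 500 bases gave 42.4%, 16.1% and 6.09% for these 3 shares. Absence within 1000 bases gave 40.3%, 15.5% and 7.00%, and 500 bases around centres gave 44.3% and 17.5% for the first pair. Within 2000 and 50000 bases of regions in all 4 lists lay 5.90% and 49.7%, and cluster gaps of 5000 and 25000 bases gave 3.37% and 23.5%.

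With 21078, 15000, 10000 and 5000 peaks per list, exclusive pairs numbered 1666, 1119, 719 and 375 for Activin A and combined; 847, 631, 399 and 252 for combined and Wnt3a; 869, 636, 462 and 238 for Activin A and Wnt3a; 896, 645, 423 and 244 for Activin A and control; 804, 687, 461 and 253 for combined and control; and 647, 542, 417 and 258 for Wnt3a and control. Where no construction is named, the cause was not tested. Promoters, gene lists and motifs were not run. Chromosome, band, distance and named-region values were not recomputed. Depth is unknown and limits every absence. No paired analysis was possible because there was a single library per group.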

Other observations

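The share of Activin-dependent regions that were strong in both lists was taken by chromosome after the other values were seen. It was 4.67% on the X (19 of 407, 2.83 to 7.19) and 4.53% on chromosome 19 (36 of 794, 3.20 to 6.22), against 2.67% over the genome, and the lowest of an autosome was 1.67% on chromosome 18 (7 of 419, 0.674 to 3.41). Of all regions with both peaks, 20.6% were strong on the X, 38.9% on chromosome 19 and 22.8% on chromosome 18, against 28.4% over the genome. Chromosome 19 was thus high by both measures, whereas the X was high by the first and low by the second.

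The share of regions with both peaks that were Activin-dependent was also taken by distance to the chromosome end, after high shares had been seen in several terminal bands. It was 44.6% (42.5 to 46.6) within 2 Mb of an end, 45.3% at 2 to 5 Mb and again at 5 to 10 Mb, 43.8% at 10 to 20 Mb, 43.0% at 20 to 50 Mb and 42.7% (41.7 to 43.6) beyond 50 Mb. The ratio of the observed number to that given by the scores was 1.04 within 2 Mb and lay between 0.989 and 1.02 in the other 5 bins of distance.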
